A study of Homo sapiens with 19 samples.

Results

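The 42 genes described here encode the actin and myosin cytoskeleton of MDA-MB-231 breast cancer cells, an established human line, and of sublines derived from it. They were the genes of a list of actins, myosins and actin-binding proteins. The list was chosen with earlier results of these data known, so shares set beside those of all genes describe it and do not test it. A probe set (a group of short probes on the array) counted as a member's if its annotation named that gene alone. Of the 42 genes, 39 had such a probe set, 81 probe sets in all, against 11963 genes in the whole series. ACTG1, FHL1 and FLNA had none, and the signals of CNN1, TPM2 and VIL1 were too low to keep (3.92 to 95.6 over all 19 arrays), which left 36 genes to test among 9546. Messenger RNA was measured on 1 Affymetrix array for each of 19 lines: the parental line, 4 ploidy sublines (1 modal-ploid and 1 hyper-ploid from line 1833, and the same from line 4175), 3 weakly bone-metastatic lines (2293, 2295 and 2296), 4 strongly bone-metastatic lines (1833, 2274, 2268 and 2269), 3 weakly lung-metastatic lines (SCP21, SCP6 and SCP26) and 4 strongly lung-metastatic lines (4142, 4173, 4175 and 4180). The question behind the series, per its title, was what a spontaneous doubling of ploidy does to metastasis, and the bone and lung lines set metastatic ability to an organ beside it. All lines derive from the parental line and were grown in culture with selective drugs, per the labels' protocols, so no array held tumour tissue. A line with 1 array is 1 replicate of its group, and p-values measure the spread among such lines. The third weakly bone-metastatic line is titled 2296 but carries the name 2297 in its cell line label.

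Actin filaments are built from globular actin under the control of nucleators (the Arp2/3 complex, formins), monomer binders (profilins), severing proteins (cofilin, gelsolin) and capping proteins. Nonmuscle myosin II pulls on these filaments, tropomyosins, calponins and caldesmon coat them and tune that pull, and α-actinins, fascin, filamin and drebrin bundle or cross-link them. In carcinoma cells this machinery drives protrusion, adhesion and the contractile force needed to move through tissue. Many of its genes are known targets of the serum response factor SRF, which binds CArG boxes, and of TEAD factors, which bind GGAATG.

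Promoter windows of 250 bases before a start site were in the RefSeq table (GRCh38.p14) for 37 of the 42 genes, with 78 windows. ACTB, FSCN1, MYL9, PFN2 and VIL1 had none there. A CArG box on either strand was found in 8 of the 37 genes (21.6%), against 1.44% of the 27305 genes in the table, which had 35116 windows and so fewer windows per gene. The 8 were ACTG1, ACTN1, CNN2, FHL1, FHL2, FLNA, MYO1E and TPM4. GGAATG, or CATTCC on the other strand, was found in 11 genes (29.7% against 14.3%), and the AP-1 motif TGANTCA in 6 (16.2% against 8.06%). Each motif was searched on both strands, and no matches of different motifs overlapped in these genes. A match is a run of letters, not a measured binding site. The FHL2 stretches below are shown because that gene carried a CArG box in separate promoters. ACTN1 and CNN2 are shown because they carried the same motif with opposite signs of difference in the bone lines. MYH10, CNN3 and LIMA1, higher in the strongly than in the weakly bone-metastatic lines, are shown as examples of GGAATG. Of the 10 measured carriers of GGAATG, FHL2 was also higher there and CALD1, with 2 matches, was lower. ACTN1, MYH9, PALLD, PFN1 and VCL did not pass. Capitals mark the motif for which a stretch is shown, and the ACTN1 stretch also holds that gene's CATTCC match, in lower case. Each sequence reads 5′ to 3′ on the gene's strand, and coordinates are GRCh38.p14.
FHL2 (chr2:105438590-105438629, minus strand): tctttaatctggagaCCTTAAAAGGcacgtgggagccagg
FHL2 (chr2:105399086-105399125, minus strand): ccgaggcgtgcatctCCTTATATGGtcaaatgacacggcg
ACTN1 (chr14:68977713-68977752, minus strand): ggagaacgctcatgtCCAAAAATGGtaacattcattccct
CNN2 (chr19:1026504-1026543, plus strand): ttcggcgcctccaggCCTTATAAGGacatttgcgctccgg
MYH10 (chr17:8630908-8630943, minus strand): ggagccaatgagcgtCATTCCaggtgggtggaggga
CNN3 (chr1:94925891-94925926, minus strand): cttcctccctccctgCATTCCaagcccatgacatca
LIMA1 (chr12:50202174-50202204, minus strand): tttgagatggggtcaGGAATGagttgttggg

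The deposited ratios fell into 2 sets divided separately, with the parental line, the bone lines and the 1833 sublines in the first and the lung lines and the 4175 sublines in the second. Levels were therefore compared within a set. Before scaling, median signals were 124 to 163 units on 15 arrays and 89.3 to 97.7 units on the 4 ploidy arrays, and the mean log2 signal of 18 spike-in probe sets was 9.52 to 9.77 on the ploidy arrays against 10.2 to 11.7 on the others. The epithelial and mesenchymal genes VIM, CD44, EGFR, KRT18, KRT8 and CAV1 were above the 40th percentile on every array, and PGR was at or below it on every array. Of the other genes this line is known to lack, CDH1 was at or below it on 18 arrays and ESR1 on 3, and ERBB2 (342 to 1019.7 units) and GATA3 (164 to 963 units) were not dim. GATA3 passed with opposite signs (1.13 in bone and -0.90 in lung), and ERBB2 passed in lung (-0.77). Of 13 leukocyte markers on the array, PTPRC and TYROBP were at or below the 40th percentile on all 19 arrays, as were VWF, CDH5, EMCN and LUM of 11 endothelial and stromal markers and MYH11 and LMOD1 of 8 smooth muscle markers. The summed signal of the leukocyte markers nevertheless moved with the groups, at 8244 to 8247 units in weakly and 2705 to 4302 in strongly bone-metastatic lines, and 2201 to 2950.2 in weakly and 6592 to 7255 in strongly lung-metastatic lines. LAPTM5 was the gene of that list that passed the test (-1.55 in bone and 2.20 in lung, log2 difference of strong minus weak lines). It alone averaged 7020 units in weakly and 2433 in strongly bone-metastatic lines, and 1269 and 5813 in the lung lines. The sum thus moved largely with this 1 gene. The endothelial and stromal sum was 1079 to 1534 units in weakly and 791 to 1169.5 in strongly bone-metastatic lines, with 839 to 949 and 1187 to 1489 in the lung lines. Of its genes PECAM1 passed in both (-1.60 in bone and 1.13 in lung) and COL1A1 in lung (means of 615 units in strongly and 305 in weakly metastatic lines), and of the smooth muscle markers SMTN passed in lung (1.09), with sums of that list of 1434 to 1801 units in weakly and 1965 to 2337 in strongly lung-metastatic lines. The ratio of 3′ to 5′ ACTB control probe sets, a sign of RNA integrity, was 0.865 to 1.03 in weakly and 0.753 to 0.952 in strongly bone-metastatic lines, with 1.06 to 1.32 and 0.994 to 1.14 in the lung lines. The part of these values in the results that follow was not tested. A difference in a line's mean level can also come from the share of its cells that express a gene or from the amount of RNA per cell, which cannot be told apart.

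Between the bone-metastatic groups most genes that passed were higher in the strongly metastatic lines, and they covered several kinds of actin-binding protein. Here and below, rose and fell compare strongly with weakly metastatic lines, not with the parental line. MYH10, PFN2, FHL2, CNN3, LIMA1, CORO1C and MYO10 were higher in the 4 strongly than in the 3 weakly bone-metastatic lines, and CALD1 and PDLIM7 were lower. With limma and Benjamini-Hochberg adjustment over 9546 genes, 9 of the 36 genes passed an adjusted p of 0.05 (25%), against 11.6% of all genes tested. The 7 that rose compare with 6.79% of all genes and the 2 that fell with 4.8%. The cytoskeleton genes were brighter than most genes on the array, and bright genes passed more often. Above the 60th percentile on at least 2 arrays, 11 of the 36 (30.6%) passed, against 19.7% of 6674 genes. This filter kept most of the 9546 genes and did not match brightness. The median difference over the 36 genes was 0.28 (log2), against 0.01 over all genes. Scaling arrays to a common trimmed mean moved the median of all genes by -0.07 in this comparison, and the share of all calls that were higher moved from 58.6% to 47.4%, or to 49.7% under quantile normalisation. Counts among the 36 genes under these scalings were 11 (7 higher, 4 lower) and 8 (6 higher, 2 lower).

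MYH10 had the largest difference of the 36 genes, and 4 of the 6 myosin genes did not pass. The gene lies on chr17:8474212-8630725 and encodes the heavy chain of nonmuscle myosin IIB. Its signal was 99.3, 148 and 235 units in the weakly bone-metastatic lines 2293, 2295 and 2296, and 1044, 1081, 1111 and 1063 units in the strongly metastatic lines 1833, 2274, 2268 and 2269. No weakly metastatic line came near the others, and the lowest of the other 7 arrays of the set, a ploidy subline of 1833, read 762 units. Group means were 1075 ± 28.2 (SD, n = 4) and 161 ± 68.7 (SD, n = 3), a log2 difference of 2.70 with an SE of 0.33 (adjusted p = 0.000227). The parental line stood with the strongly metastatic lines, at 1366 units. MYO10, an unconventional myosin found at filopodia tips, read 508 to 591 units in the weakly and 676 to 1211 units in the strongly metastatic lines. Its difference of 0.66 (SE 0.20, adjusted p = 0.0497) lay at the threshold and missed it in 13 of 17 alternative settings. The other myosin genes did not pass. MYH9, the heavy chain of myosin IIA, differed by -0.03 (SE 0.24). The light chains MYL6 and MYL9 differed by -0.40 and 0.31, and the class I myosin MYO1E by 0.14.

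Among the 9 genes of filament assembly and turnover, PFN2 and CORO1C rose. PFN2, a profilin that feeds actin monomers to growing filaments (chr3:149964904-149970895), read 691, 581 and 954 units in lines 2293, 2295 and 2296, and 2077, 2936, 2592 and 2139 units in lines 1833, 2274, 2268 and 2269. Every strongly metastatic line was above every weakly metastatic one, and the parental line, at 992 units, lay just above the weakly metastatic lines. The means were 2436 ± 404 (SD, n = 4) and 742 ± 192 (SD, n = 3), and the difference was 1.71 (log2, SE 0.21, adjusted p = 0.000252). CORO1C, a coronin that works on Arp2/3 branches, read 5233, 4724 and 4206 units in the weakly and 12160.1, 12088, 11466 and 9537 units in the strongly metastatic lines. It was the member whose 4 strongly bone-metastatic lines were all above the 6 other arrays of the set, a pattern of 2.03% of all genes. Its difference was 1.26 (SE 0.19, adjusted p = 0.00107). The 7 genes of this kind that did not pass ranged from -0.42 (GSN) to 0.78 (CAPG, adjusted p = 0.0756), with the cofilin CFL1 at 0.25, the formin DIAPH1 at 0.12 and the Arp2/3 subunits ARPC2 and ARPC5 at 0.44 and -0.10.

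Coating proteins moved in opposite directions. CNN3, the acidic calponin (chr1:94896957-94927110), read 1310.0, 1354 and 1185 units in the weakly metastatic lines and 3137, 4060.5, 3818 and 2671 units in the strongly metastatic lines, which did not overlap. Its difference was 1.39 (SE 0.17, adjusted p = 0.000274), and the parental line, at 3765 units, lay within the strongly metastatic range. CALD1, which encodes caldesmon, a brake on actomyosin (chr7:134711499-134970729), fell. It read 1226, 1265 and 1146 units in the weakly and 459, 498, 518 and 514 units in the strongly metastatic lines, and 1284 units in the parental line. The difference was -1.26 (SE 0.21, adjusted p = 0.00191), and the strongly metastatic lines lay below all 6 other arrays of the set, as they did for 3.31% of all genes. CNN2, TPM1 and TPM4 did not pass, with differences of -0.34, 0.33 and 0.30.

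LIMA1 and FHL2 rose, and PDLIM7 fell. LIMA1, or EPLIN, stabilises and bundles filaments. It read 769.6, 720.0 and 957 units in the weakly and 2046, 2082, 2084 and 1899 units in the strongly metastatic lines, with a difference of 1.31 (SE 0.18, adjusted p = 0.000468) and the parental line at 1978 units. The other 5 cross-linking genes did not pass and ranged from -0.45 (ACTN4) to 0.57 (ACTN1), the latter with groups that did not overlap (2788 to 3189.7 against 4111 to 4941 units, adjusted p = 0.0511). FHL2, a LIM-domain protein that shuttles between adhesions and the nucleus, read 777, 742 and 998 units in the weakly and 2601, 2929, 2413 and 2209 units in the strongly metastatic lines. Its difference was 1.58 (SE 0.23, adjusted p = 0.000944). PDLIM7 (enigma), an adapter of stress fibres, read 749.7, 776 and 887 units in the weakly and 426, 362, 442 and 360.1 units in the strongly metastatic lines, a difference of -0.99 (SE 0.16, adjusted p = 0.00148). That call rested on the brightest probe set: the mean over its probe sets gave -0.04 (adjusted p = 0.945). The focal adhesion genes TLN1, VCL, PDLIM1 and ZYX did not pass (0.39, -0.13, -0.33 and -0.60). ZYX had the next largest lower difference, with 472 to 742 units against 871 to 1222 units (SE 0.23, adjusted p = 0.112), and passed under trimmed-mean scaling (-0.67, adjusted p = 0.0450). The membrane linkers EZR, MSN and RDX differed by 0.50, 0.39 and 0.17, and β-actin (ACTB) by 0.19, none past the threshold.

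**Figure D1:**
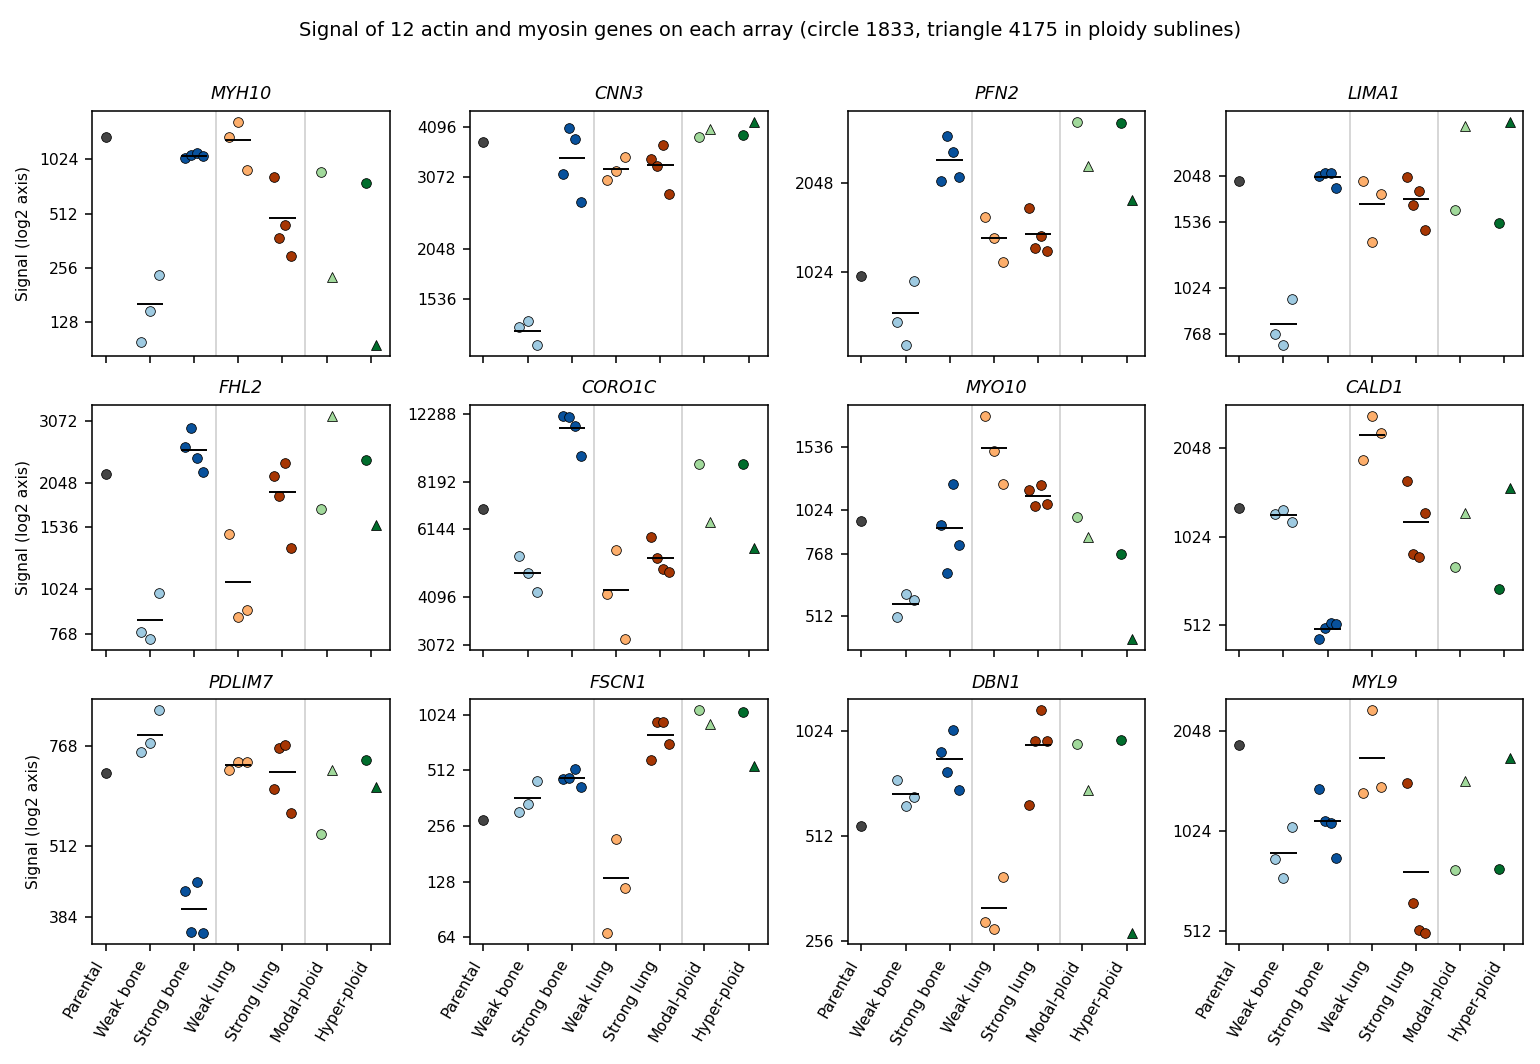
Signal of the 12 genes that passed in the bone or the lung lines, in array units on a log2 axis, with 1 point per line and a bar at the group mean. Bone lines, the parental line and the 1833 sublines (circles among the ploidy sublines) form 1 array set and the lung lines and 4175 sublines (triangles) the other, so levels are read within a set; for MYH10 the weakly bone-metastatic lines (99.3 to 235 units) lie under the rest of their set.

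For groups of lines that did not overlap, 17 of the 36 genes separated strongly from weakly bone-metastatic lines (11 above, 6 below), against 27.6% of all genes (14.7% above, 12.9% below). The 8 of these that were not past the threshold were ACTN1, ARPC2, CAPG and TPM1 above and CNN2, MYL6, PDLIM1 and ZYX below. Each group was also set beside the other arrays of its set. In 10 genes (ACTN1, ARPC2, CAPG, CNN3, CORO1C, FHL2, LIMA1, MYH10, MYO10 and PFN2) the 3 weakly metastatic lines read below every other array, a pattern of 9.01% of all genes. MYL6 and PDLIM7 read above every other array in these lines (5.37% of all genes). The strongly metastatic lines read below every other array in 5 genes (CALD1, CNN2, PDLIM1, PDLIM7 and ZYX; 3.31% of all genes) and above it in 1 (CORO1C; 2.03%). Of the 9 genes that passed, the parental array lay nearer the strongly metastatic lines for 5 (CNN3, FHL2, LIMA1, MYH10 and MYO10) and nearer the weakly metastatic lines for 4 (CALD1, CORO1C, PDLIM7 and PFN2), against 51.8% nearer the strongly metastatic lines among all 1106 genes that passed. The parental line had 1 array, so this placing has no test.

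In the lung-metastatic lines 6 of these genes passed, and FSCN1 had the largest difference. FSCN1, DBN1 and FHL2 were higher in the 4 strongly than in the 3 weakly lung-metastatic lines, and MYH10, MYL9 and CALD1 were lower. By the same limma fit 6 of the 36 genes passed (16.7%), against 8.91% of all genes, with 3 higher (3.38% of all genes) and 3 lower (5.53%). Above the 60th percentile on at least 2 arrays 6 of the 36 passed, against 15.4% of the genes kept, a close share. That filter did not match brightness gene by gene. The median difference was 0.01 over the 36 genes and -0.01 over all genes. The share of all calls that were higher was 38.0%, and 47.3% or 48.6% under trimmed-mean scaling or quantile normalisation. When the fit held the 7 lung lines alone, 2 of the 36 genes passed, DBN1 and FSCN1. Without the weakly metastatic line SCP6, 3 passed.

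FSCN1, which encodes fascin, the bundler of filopodial and invasive protrusions (chr7:5592816-5606655), read 67.3, 217 and 118 units in SCP21, SCP6 and SCP26, and 585, 932, 941 and 710.5 units in lines 4142, 4173, 4175 and 4180. No line of the weakly metastatic group came near the others: the lowest of the remaining 6 arrays of the set, the 4175 sublines included, read 542 units. The means were 792 ± 175 (SD, n = 4) and 134 ± 76.2 (SD, n = 3), a difference of 2.53 (SE 0.29, adjusted p = 0.000183). DBN1, which encodes drebrin, a side-binding protein that stabilises filaments, read 289, 277 and 390.1 units in the weakly and 626, 959, 1170.0 and 956 units in the strongly metastatic lines. Its groups did not overlap either, and its difference was 1.48 (SE 0.22, adjusted p = 0.000925). FHL2 was 1929.9 ± 435 (SD, n = 4) against 1073 ± 345 units (SD, n = 3), with overlapping lines, since 4180 read 1339 and SCP21 1471 units. Its difference of 0.85 (SE 0.23, adjusted p = 0.0365) was lost in 6 of 17 alternatives.

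MYH10, CALD1 and MYL9 fell. MYH10 read 1365, 1651 and 894 units in the weakly and 819.6, 373, 445 and 297 units in the strongly lung-metastatic lines. The groups were close at 1 point, 4142 against SCP26, and did not overlap. The difference was -1.46 (SE 0.33, adjusted p = 0.0128), lost with the 7 lung lines alone and without SCP6 (range of the adjusted p over 17 alternatives 0.00315 to 0.0558). CALD1 read 1869.8, 2639 and 2304 units in the weakly and 1588, 894, 869 and 1230.2 units in the strongly metastatic lines, a difference of -1.01 (SE 0.21, adjusted p = 0.00777), also lost with the 7 lung lines alone (adjusted p = 0.0634). MYL9, the regulatory light chain whose phosphorylation switches myosin II on, read 1335, 2365 and 1394 units against 1432, 624.7, 518 and 507 units. Line 4142 overlapped the weakly metastatic lines, and the difference of -1.21 (SE 0.33, adjusted p = 0.0348) was lost in 5 of 17 alternatives.

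The other 30 genes did not pass in the lung lines and ranged from -0.87 (GSN, adjusted p = 0.146) to 0.47 (MYL6, adjusted p = 0.120). Among them were all 9 genes of filament assembly and turnover, which included the bone-line genes PFN2 (0.04) and CORO1C (0.31), and the calponins CNN2 and CNN3 (-0.00 and 0.03). Groups did not overlap in 7 of the 36 genes (4 above, 3 below), against 19.7% of all genes (8.36% above, 11.3% below), with ACTN4 and MYL6 above and MYO10 below beyond the genes that passed. The weakly lung-metastatic lines were below the other 6 arrays of their set for ACTN4 and FSCN1 (4.39% of all genes) and above them for CALD1, MYH10 and MYO10 (5.77%). The strongly lung-metastatic lines were below the other 5 arrays in 0 of the 36 genes (5.49% of all genes) and above them in 0 (2.99%).

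**Figure D2:**
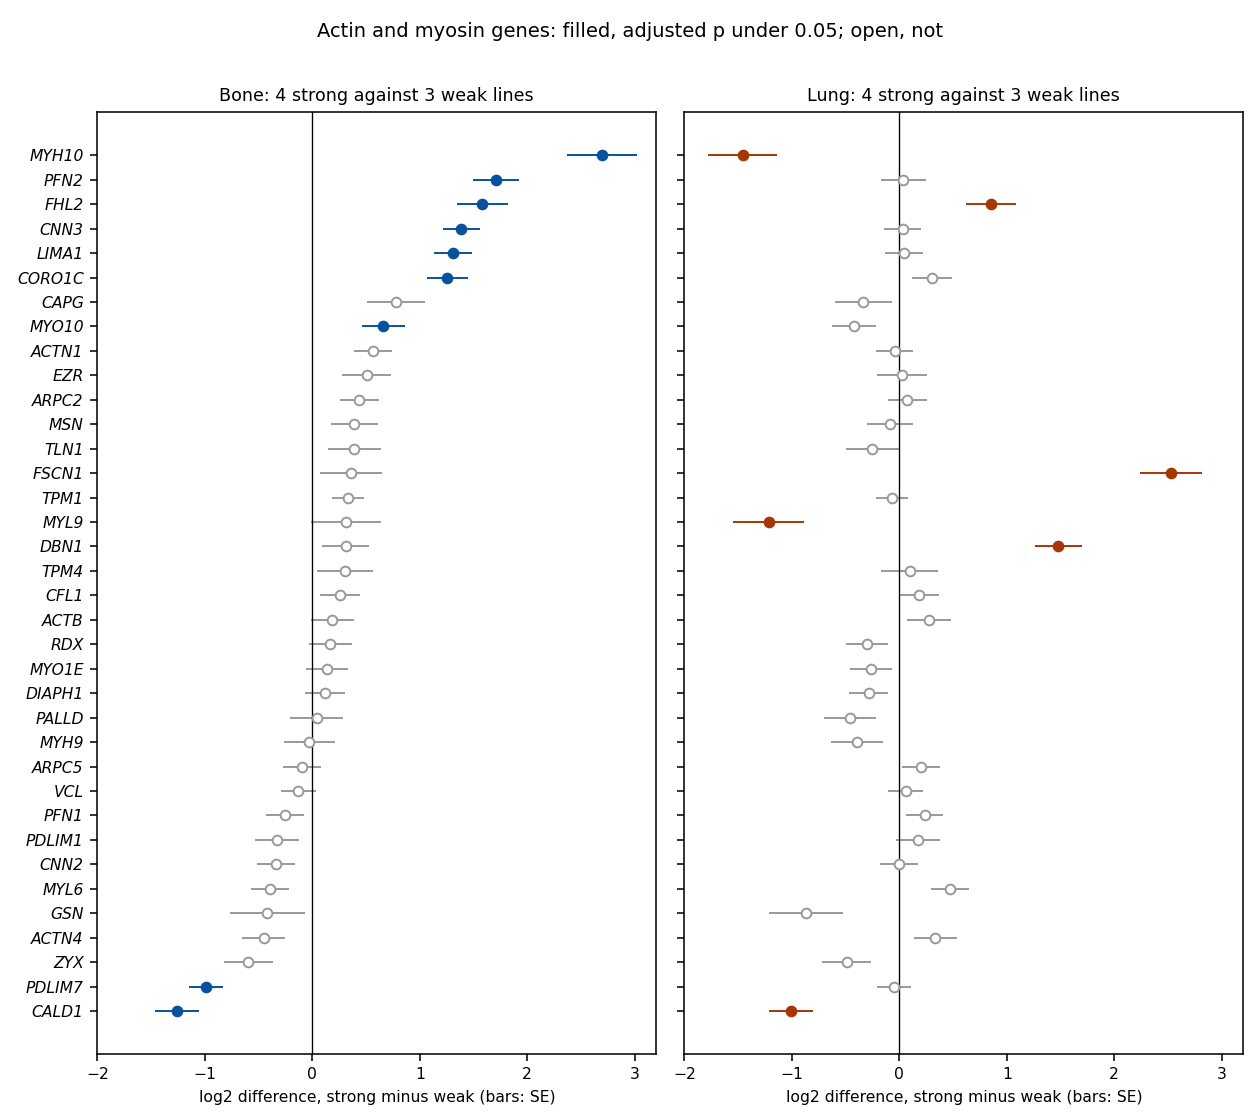
Log2 difference of strongly minus weakly metastatic lines for the 36 tested genes, in the bone lines (left) and the lung lines (right), with bars of 1 SE from the limma fit and the genes in the order of the bone difference. Filled points passed an adjusted p of 0.05: MYH10 is at 2.70 in bone and -1.46 in lung, and FSCN1 at 0.36 and 2.53.

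The bone and lung differences shared no arrays, so each gene's difference could be set against the other directly. CALD1, FHL2 and MYH10 passed in both, CALD1 lower and FHL2 higher in both, and MYH10 with opposite signs. The difference of the differences (bone minus lung) passed for 11 of the 36 genes (30.6%), against 11.7% of all genes, with 7 higher in bone (6.96% of all genes) and 4 lower (4.78%). Above the 60th percentile 12 of the 36 (33.3%) passed, against 19.5%. MYH10 had the largest, 4.16 (SE 0.46, adjusted p = 0.000122). Also higher in bone were PFN2 at 1.67 (SE 0.30, adjusted p = 0.00277), CNN3 at 1.36 (SE 0.24, adjusted p = 0.00302) and LIMA1 at 1.26 (SE 0.25, adjusted p = 0.00551). On the lung side stood FSCN1 at -2.17 (SE 0.41, adjusted p = 0.00402), DBN1 at -1.17 (adjusted p = 0.0253) and PDLIM7 at -0.94 (adjusted p = 0.0143). The values for MYO10 (1.09), CORO1C (0.95), MYL6 (-0.87) and MYL9 (1.53) passed with adjusted p-values of 0.0263, 0.0337, 0.0368 and 0.0486. MYH10, PFN2, CNN3, LIMA1 and FSCN1 passed in all 23 alternatives, whereas the call was lost for MYL9 in 15 of 23, MYL6 in 11, CORO1C in 10, DBN1 and MYO10 in 6 each and PDLIM7 in 1. For MYL6 the mean over its probe sets gave -0.28 (adjusted p = 0.584), and for PDLIM7 -0.09 (adjusted p = 0.900). The difference for CALD1 (-0.25, adjusted p = 0.630) and FHL2 (0.73, adjusted p = 0.175) did not pass. Of the myosins 4 of 6 (MYH10, MYL6, MYL9 and MYO10) passed, and of the membrane linkers 0 of 3, with 0.47 to 0.48 each and 0 called in bone or lung. Trimmed-mean scaling moved the median of all genes by -0.13 here and gave 12 members, and the share of all calls that were higher in bone fell from 59.3% to 48.9%, or to 49.0% with quantile normalisation.

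The change between groups was also computed for the log2 ratio of paralogues within each array. The log2 ratio of MYH10 to MYH9 within each array changed by 2.72 between strongly and weakly bone-metastatic lines, that of PFN2 to PFN1 by 1.96, that of CNN3 to CNN2 by 1.73 and that of ACTN1 to ACTN4 by 1.02. In each of these pairs the lines of the groups did not overlap, which gave the smallest p that 4 lines against 3 allow (0.0571, two-sided exact permutation test; 0.137 adjusted over 12 tests). The ratios of TPM1 to TPM4 and of RDX to EZR changed by 0.03 and -0.34 with overlapping lines. In the lung lines the ratio of MYH10 to MYH9 changed by -1.07 without overlap, and the other 5 pairs overlapped, with changes of -0.38 to 0.03. No pair could pass the threshold in a design of this size, so the changes are given as values. MYH10, PFN2 and CNN3 had passed in bone on these same arrays, and the ACTN1 groups did not overlap there. The gaps in their ratios are therefore no separate support. The share of such gaps over all gene pairs was not counted.

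Other probe sets of these genes measure different stretches of the same transcript or other isoforms. The 36 genes had 37 further kept probe sets, in 19 genes. In the bone lines 29 of the 37 had the sign of the brightest probe set and 2 passed, against 10.5% of all probe sets. Those were the second MYH10 probe set (2.77) and a radixin (RDX) probe set at 0.80 (adjusted p = 0.0217), whereas RDX's brightest one read 0.17. In the lung lines 32 had the same sign and 5 passed, against 7.82%: the second probe set of FSCN1 (2.70) and of DBN1 (1.33), and 3 of the 5 of CALD1 (-1.36, -1.20 and -1.05). The second MYH10 probe set gave -0.98 there (adjusted p = 0.0725). In the bone lines the other 5 CALD1 probe sets gave -0.87 to -0.19, and none passed, and the mean over its probe sets gave -0.66 (adjusted p = 0.0708). The 3 other PDLIM7 probe sets gave 0.08, 0.10 and 0.66, against -0.99 for the brightest. MYO10's second probe set gave 0.26 (adjusted p = 0.733). MYL6 showed opposite signs in bone (-0.40 and 0.41). The other ARPC2 probe sets gave 0.10 and -0.06 there, with overlapping groups, against 0.44 for the brightest. The 8 probe sets annotated to both ACTB and ACTG1, not counted as members, ranged from 0.11 to 0.34 in bone and from -0.00 to 0.14 in lung, with adjusted p-values of 0.272 or more.

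**Figure D3:**
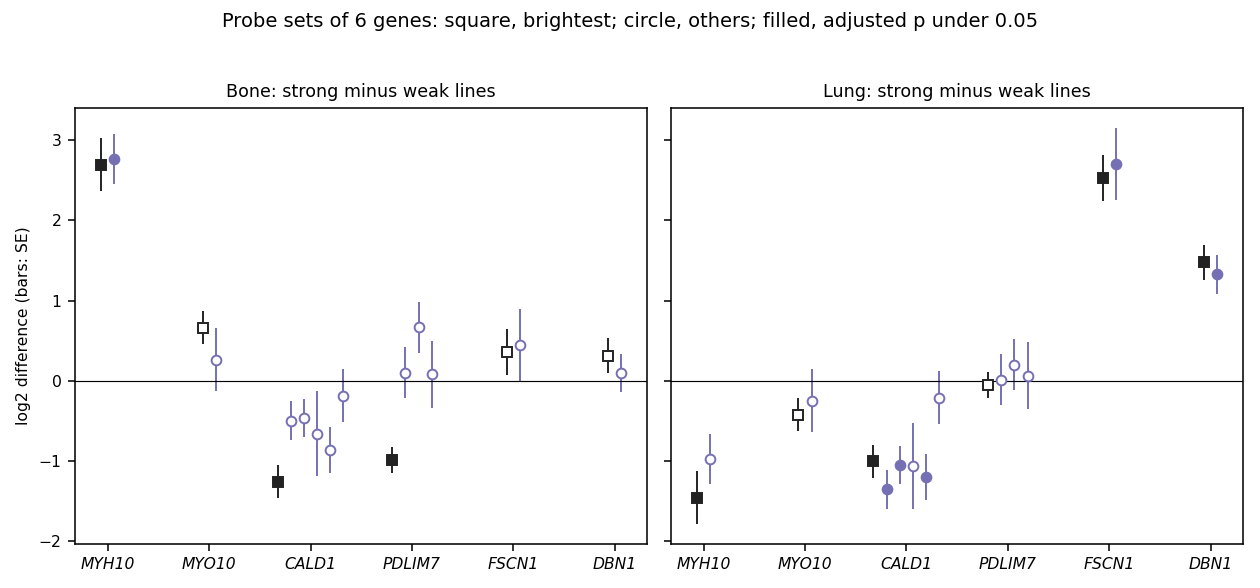
Log2 difference of strongly minus weakly metastatic lines, with bars of 1 SE, for each kept probe set of 6 genes in a fit over all 16322 kept probe sets, bone on the left and lung on the right. Filled symbols passed an adjusted p of 0.05 in that fit, in which MYO10 did not pass; the probe sets of MYH10, FSCN1 and DBN1 lie together, and the 4 of PDLIM7 spread from -0.99 to 0.66 in bone.

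The ploidy comparison set the hyper-ploid against the modal-ploid subline of each line, with 1 array each. By limma on the 4 arrays, blocked by line of origin, 0 of the 36 genes passed, against 0.0105% of all genes (1 gene). With 1 residual degree of freedom the fit leaned on the spread pooled over genes, and 2 of the 36 genes, MYH10 and MYO10, had an unadjusted p under 0.05, against 509 of all genes. The largest mean differences were -0.66 for MYH10 (SE 0.30, adjusted p = 0.931), -0.64 for MYO10 (SE 0.28, adjusted p = 0.911) and -0.64 for DBN1 (SE 0.33) among the lower, and 0.45 for ACTN4 (SE 0.28), 0.34 for TPM1 (SE 0.28) and 0.22 for CNN2 (SE 0.27) among the higher, the last 4 with adjusted p-values of 0.999. The 2 pairs had the same sign in 13 of the 36 genes (7 higher and 6 lower in both hyper-ploid sublines), against 46.8% of all genes.

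In the 1833 pair these genes differed little by their brightest probe sets. Their differences had an SD of 0.25, against 0.42 over all genes, none was over 2-fold (3.27% of all genes), and 2 were over 1.5-fold (11.7% of all genes). Those were ACTN4 and TPM1. ACTN4 read 5714 units (modal-ploid) and 9263 units (hyper-ploid), a difference of 0.70. TPM1 read 1339 and 2123 units, a difference of 0.66. The other kept TPM1 probe sets had wider gaps, at 579 and 1363 units and at 741 and 1466 units. In the 4175 pair the SD was 0.42, against 0.50 over all genes, with 6 genes over 1.5-fold (18.3% of all genes) and 3 of them over 2-fold (5.15%). These counts are for the brightest probe sets, and by them all 6 were lower in the hyper-ploid subline. Some other kept probe sets were higher there. One of ZYX read 1266 units (modal-ploid) and 1996 units (hyper-ploid), and those of CALD1 included 187 and 318 units and 90.4 and 208 units. In the order modal-ploid, hyper-ploid, DBN1 read 690.4 and 269 units (-1.31), MYH10 229 and 96.3 units (-1.12), and FHL2 3173 and 1555 units (-1.02). MYO10 (-0.93), FSCN1 (-0.74) and TLN1 (-0.65) made up the rest. The second kept probe sets of MYH10, MYO10 and FSCN1 were also lower in the hyper-ploid subline, but by less. In the same order, that of MYH10 read 45.9 and 37.6 units and that of MYO10 32.5 and 25.5 units, all below the 40th percentile of their arrays. The second of DBN1 had a gap like that of its brightest, and FHL2 and TLN1 had no other kept probe set. FHL2 and DBN1 had the opposite sign in the 1833 pair, at 0.46 and 0.04. The 5 coating-protein genes were higher in the 4175 hyper-ploid subline by 0.02 (TPM1) to 0.34 (CNN2), with CNN3 at 0.06. The share of all genes higher in that pair was not counted, and CALD1 was lower in the 1833 pair (-0.24). With 1 array a subline, these pair values have no replicate check. These genes were also brighter than most genes on the array, and the part of that in their smaller SDs was not tested.

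**Figure D4:**
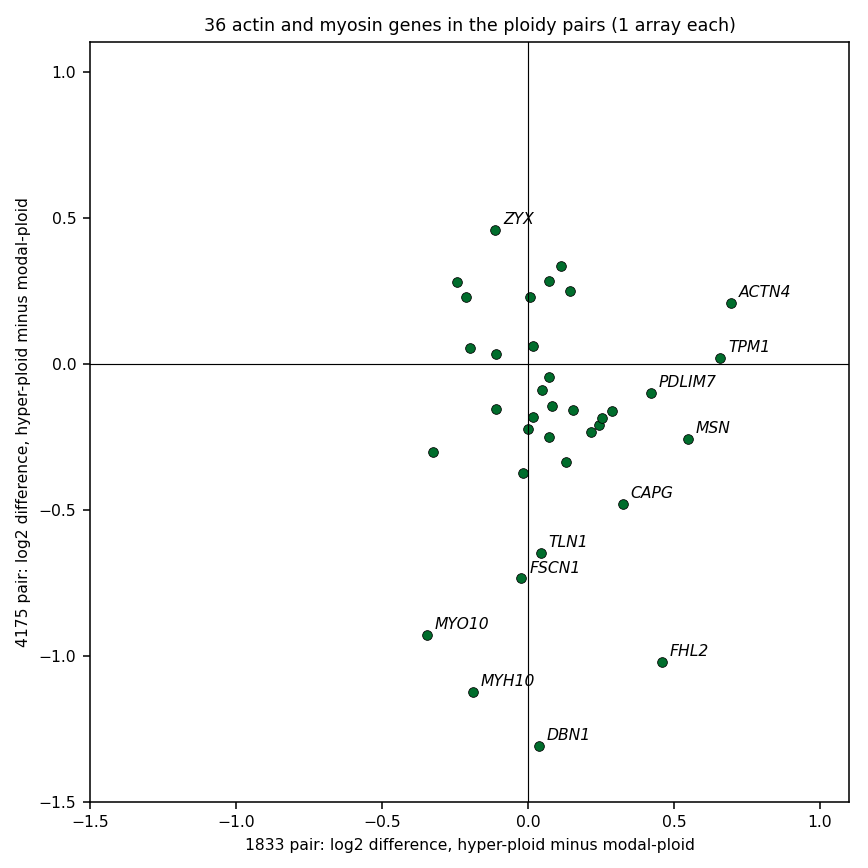
Log2 difference of the hyper-ploid minus the modal-ploid subline in the 1833 pair (horizontal) and the 4175 pair (vertical) for the 36 tested genes, 1 array per subline and so no error bars. Most points lie near 0 on the horizontal axis (SD 0.25), and DBN1, MYH10 and FHL2 lie below -1 on the vertical axis.

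By the brightest probe set of each gene, the ploidy sublines also stood apart from the lines they came from. In 13 of the 36 genes the 1833 sublines were both outside the range of the other 8 arrays of their set, below it in 5 (ACTB, CFL1, GSN, MYO1E and RDX; 8.72% of all genes) and above it in 8 (ACTN4, ARPC2, FSCN1, PDLIM1, PFN2, TLN1, TPM4 and ZYX; 14% of all genes). FSCN1 read 1083 and 1067 units in the modal-ploid and hyper-ploid 1833 sublines, 457 units in the line 1833, and 277 to 524 units over the other 8 arrays. The actin-severing protein gelsolin, GSN, read 534 and 463 units in them, 1438 units in the line 1833, and 1438 to 2482 units over the 8 arrays. ACTN4, the nonmuscle α-actinin-4, read 5714 and 9263 units against 1814 to 4058 units. Not every probe set of the listed genes lay outside the range. A further RDX probe set read 224 and 290 units in the 1833 sublines, with 253 in line 2269. The 5′ control probe set of ACTB read 21381 and 23810 units in them, with 21284 in line 2296. The 4175 sublines lay below the other 7 arrays of their set in DIAPH1, MYH10 and MYO10 (7.13% of all genes) and above them in ACTN4, CNN3, LIMA1, PFN2, TPM1 and TPM4 (10.1%). TPM1, a tropomyosin, read 2982 and 3025 units in them against 1601 to 1988 units, and LIMA1 2793 and 2858 units against 1361 to 2038 units. A further TPM1 probe set lay within the range (1837 and 1997 units, with 2171 in SCP21). Another lay above it (1300 and 1552 units, with 928 in SCP6 as the next highest). The other DIAPH1 probe sets lay within the range of the 7 arrays, at 337 and 359 units and at 231 and 238 units. So did the second of MYH10 (45.9 and 37.6 units, with 33.6 in line 4180). The second of MYO10 lay below it (32.5 and 25.5 units, with 44.0 in SCP26). By their brightest probe sets ACTN4, PFN2 and TPM4 were above the range in both sets, a pattern whose share of all genes was not counted. The second TPM4 probe set was above it in neither. It read 2346 and 2513 units in the 1833 sublines, with 2712 in line 2268, and 2315 and 3322 units in the 4175 sublines, with 3041 in SCP6. The ploidy arrays were also the ones with the low spike-in and overall signal given above, and the part of that in these gaps was not tested.

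Other genes of the pathway were read from lists against the 11.6% of all genes that passed in bone and the 8.91% in lung. Of 15 nucleation and branching genes 2 rose (among them WASF3, 0.97) and 3 fell (CTTN, which encodes cortactin, -0.99, and the Arp2/3 subunits ARPC4 -0.92 and ARPC1A -0.79). Of 16 capping and monomer-binding genes 2 rose (among them CAP2, 1.40) and 1 fell. Of 21 focal adhesion genes 1 rose and 1 fell, the kinase gene SRC (-1.61), a share near that of all genes. In the lung lines 3 of the nucleation genes fell, with the formins DAAM1 and DIAPH2 at -1.75 and -0.97 and WASF3 at -1.01. Of the focal adhesion genes 1 fell, the tensin TNS3 at -1.13. Of the capping genes TWF1 rose (0.85) and CAPZA2 fell (-0.85). The median differences of these 3 lists were -0.20, 0.22 and -0.14 in bone, beside 0.01 over all genes. SRF and its coactivators MRTFA and MRTFB did not pass in bone (0.49, -0.16 and -0.49) or lung (-0.48, -0.18 and 0.29). None of the genes of these lists passed in the ploidy comparison. Of the 5 measured genes with a CArG box, FHL2 was the member that passed, and ACTN1 (0.57), TPM4 (0.30), MYO1E (0.14) and CNN2 (-0.34) did not pass in bone.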

How the data were processed

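Each of the 19 arrays measured 22283 probe sets. The deposited values were linear ratios, made by the authors by dividing each probe set's signal, separately in 2 array sets; this was read from the values, and the normalisation software is not given in the sources used here. Signals were recovered as whole multiples of 0.1 units for 22281 probe sets (at most 0.0488 steps away from a multiple). Each array was scaled to a median of 143.3, and log2(signal + 16) was tested. A probe set was kept if above its array's 40th percentile on at least 2 arrays, and the brightest kept probe set annotated to 1 gene stood for the gene. The limma fit (3.58.1, R 4.3.3; lmFit, eBayes) used the 14 bone and lung lines with 1 mean per group. The ploidy fit used 4 arrays with the line of origin, from the cell line label, as a block. P-values were Benjamini-Hochberg adjusted over 9546 genes, and 0.05 was the threshold. Fold changes on this scale understate changes of dim genes. All 42 symbols matched RefSeq. Checked on simulated data, the fit recovered, in the bone comparison over 9546 genes, 48% of 100 genes changed by 1 log2 unit and 90% of 100 changed by 2. The members and lists were chosen with earlier results of these data known. Genes named in full passed the threshold or had one of the 3 largest differences in a direction. Other pathway genes came from fixed lists, of which some are not reported here, and at most 6 per comparison are named, those with the largest differences. Alternatives covered scaling, pseudocount, filter, ratios, probe sets, samples in the fit and the block.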

Additional observations from a re-analysis of the deposited data

Results flagged for a closer look

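In the 4 strongly bone-metastatic lines, line 2269 read apart from the other 3 in 5 genes after median scaling, each time as the lowest. The gap to the nearest line as a share of the group's range, both taken on the log2(signal + 16) scale, was 0.834 for DIAPH1 (1037 units against 1356 to 1430.2), 0.904 for MYH9 (1424 against 1789.6 to 1833), 0.864 for MYL6 (7612 against 10838 to 11458), 0.872 for VCL (3859.5 against 4577 to 4693) and 0.879 for ZYX (472 against 703 to 742). Before scaling, line 2269 had a median of 161.9 units, against 126.8 to 136.4 in the other 3, with a trimmed mean of 499.3 in each. Scaling to a common median thus lowered its signals relative to theirs, and the part of this in the 5 gaps was not tested. In the strongly lung-metastatic lines, VCL was high in line 4173 (7884 units against 6133 to 6367), with a share of 0.851. These were 6 of 72 groups tested in this way, and chance flags about 1 in 20.

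The strong-minus-weak difference itself differed between the bone and the lung lines, by the limma interaction, in 11 genes. It was larger in bone for MYH10 (4.16), PFN2 (1.67), MYL9 (1.53), CNN3 (1.36), LIMA1 (1.26), MYO10 (1.09) and CORO1C (0.95), and smaller for MYL6 (-0.87), PDLIM7 (-0.94), DBN1 (-1.17) and FSCN1 (-2.17).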

How the results depend on the processing

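Testing every probe set in place of 1 per gene gave 1711 calls of 16322 in bone and 1777 in the bone-minus-lung comparison, against 1106 and 1120 genes. With 1 line left out, genes called ranged from 554 to 1259 in bone (584, 554 and 620 without the weakly metastatic lines 2293, 2295 and 2296), from 506 to 1003 in lung (549 without 4173, 506 without 4175) and from 790 to 1412 between the organs. Members called ranged from 8 to 9 in bone, from 3 to 7 in lung (3 without SCP6) and from 6 to 12 between the organs. That last count was 7, 6 and 7 without 2293, 2296 and 1833, and 6, 6 and 7 without SCP21, 4173 and 4175. The 7 lung lines alone gave 446 genes and 2 members. For the ploidy pairs the 1 gene called became 0 under both other scalings, a pseudocount of 1, no filter, the deposited ratios and every probe set, and 34 above the 60th percentile. The replicate block for the pairs was the line of origin, and without it 0 genes passed. With 1 pair left out and the spread pooled over all arrays, genes called ranged from 0 to 1, members stayed at 0, and DBN1 was -1.31 without the 1833 pair and reversed to 0.0364 without the 4175 pair. MYH10, PFN2, FHL2, CNN3, LIMA1 and CORO1C in bone and FSCN1 and DBN1 in lung passed in all 17 alternatives each. The causes of these shifts were not tested. The 4 arrays of the ploidy fit, with 1 residual degree of freedom, limit its precision.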
